A study of Mus musculus with 4 samples.

Results

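Bax, Bbc3, Pmaip1, Bcl2l11, Casp8, Ripk1, Ripk3, Dedd2 and Phlda1, 9 of the 28692 genes counted, were described in monocytes and macrophages of the mouse colon. The members are regulators of apoptosis and necroptosis, found by the gene symbol of their Ensembl identifier, and they had been picked by name with earlier results of these data known, the difference between exposed and control mice included. Cells came from the lamina propria, the connective tissue under the gut epithelium, of 4 male C57/Bl6N mice. DEP 11 and DEP 13 had been gavaged with 12 µg diesel exhaust particles (DEP) in 200 µL phosphate-buffered saline (PBS) on 5 days a week for about 6 months, whereas PBS 2 and PBS 3 received PBS alone. The labels name no genetic change in these mice and do not give their age. Flow cytometry kept CD11b+ cells that were Ly6C+ or CD64+, the cells of each mouse went into a well of their own of a 10x Genomics Chromium controller, and transcripts were counted by unique molecular identifiers (UMIs), 1 per captured molecule, at the 3' end.

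Apoptosis through mitochondria is set by the Bcl2 family. BH3-only proteins such as Bbc3 (Puma), Pmaip1 (Noxa) and Bcl2l11 (Bim) bind the anti-apoptotic members, which frees effectors such as Bax to permeabilize the outer mitochondrial membrane and release cytochrome c. Death receptors act through Casp8 instead, and where Casp8 is inactive the kinases Ripk1 and Ripk3 can start necroptosis, a lytic and inflammatory form of cell death. Dedd2 is a death effector domain protein and Phlda1 a pleckstrin homology-like protein, both known as regulators of apoptosis. In the gut, circulating Ly6C+ monocytes are recruited all the time and mature into C1q-expressing macrophages, so that Ly6c2 and C1qa transcripts mark the early and the late end of this path.

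The table held 6954 barcodes, of which 4771 had at least 1000 UMIs. Of these, 179 carried T cell, B cell or plasma cell transcripts and were set aside, which left 4592 myeloid barcodes. DEP 11 had 1178 of these, DEP 13 had 637, PBS 2 had 1262 and PBS 3 had 1515. Their median depth was 5258 to 7113 UMIs. Library totals ran from 4489342 UMIs in DEP 13 to 10293703 in PBS 2, so DEP 13 gave the least precise values and PBS 2 the most precise. A total of 36 barcode sequences occurred in more than 1 mouse, 10 of them among the myeloid barcodes. A doublet caller marked 58 barcodes, 1.22% of those with at least 1000 UMIs and 3.26% of those of DEP 13, and these were kept. DEP and PBS mice were not matched in other transcripts: in the myeloid barcodes, all 8 T cell markers were detected and summed to 3.8 and 6.0 CPM (the summed UMIs of a gene scaled to the UMI total of the same barcodes) in the DEP mice against 10.2 and 11.6 in the PBS mice, and the 6 dendritic cell markers summed to 44.0 to 60.1 in DEP against 33.7 to 42.8 in PBS. Of the 6 neutrophil markers, 5 were detected (31.1 to 42.0 CPM summed) and S100a9 was at 0, and of the 5 mast cell markers only Kit was detected (1.3 to 3.7 CPM). The 8 epithelial markers summed to 14.6 to 131.4 and the 7 stromal markers to 34.1 to 61.4 CPM, with the DEP mice inside the range of the PBS mice in both lists. The 7 B cell markers summed to 44.7 to 64.7 and 3 of 4 eosinophil markers to 1.8 to 2.5 CPM. The part of these other transcripts in the results was not tested.

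The plasma cell list, which holds immunoglobulin genes, had the highest sum among the lists of other cell types. In the myeloid barcodes, the plasma cell list summed to 5252, 14893, 4137 and 16848 CPM in DEP 11, DEP 13, PBS 2 and PBS 3, high in 1 mouse of each group. In barcodes high in Ly6c2 and low in C1qa (Ly6c2-high C1qa-low, the monocyte-rich kind) it reached 46542 CPM in DEP 13 and 38858 in PBS 3, against 6624 and 10158 in the C1qa-high Ly6c2-low ones. On the monocyte-rich side, 4 barcodes of DEP 13 and 10 of PBS 3 with over 10% of their UMIs in this list held 87.7% and 77.3% of its UMIs. The immunoglobulin genes of this list, Jchain, Xbp1, Cd79b and Cd22 were not used to set barcodes aside. Without the barcodes over 10%, an alternative chosen after seeing the data, Pmaip1 and Phlda1 differed between the kinds of barcode by 0.69 and −0.88 on the log2 scale, with edgeR adjusted p of 3.53e-06 and 1.79e-06.

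Among the myeloid barcodes, Bax was the most widely detected member and Bbc3 the least. Bax, on chromosome 7 (45461697 to 45466898, minus strand, mm10), had 6032 UMIs and was found in 64.7% of barcodes. Pmaip1 on chromosome 18 (66458533 to 66465565) had 2187 UMIs in 30.2% of barcodes, and Bcl2l11 on chromosome 2 (128126038 to 128162547) had 716 in 13.5%. Bbc3 on chromosome 7 (16308393 to 16318205) had only 237 UMIs in 4.70% of barcodes. Casp8 on chromosome 1 (58795374 to 58847503) was detected in 33.9% of barcodes with 2051 UMIs. Both kinases of necroptosis were found about equally often, Ripk1 on chromosome 13 (34002363 to 34037147) in 15.2% and Ripk3 on chromosome 14 (55784995 to 55788865) in 14.9%. Dedd2 on chromosome 7 (25199915 to 25220615) had 360 UMIs in 7.32% of barcodes. Phlda1 on chromosome 10 (111506286 to 111508645) had 3035 UMIs in 23.5% and had the highest count of any member in a single barcode, 33 UMIs. All are protein-coding genes. Bax, Casp8 and Ripk1 share bases with a predicted gene on the same strand (Gm45808, Gm37760 and Gm17084) and Dedd2 with the microRNA gene Mir7048, and their UMIs could include such reads.

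Barcodes of under 500 UMIs, where free RNA would weigh most, gave the background of these shares. There, 3.97% of barcodes had a Bax UMI, 4.89% a Phlda1 UMI and 0.37% a Bbc3 UMI, at median depths of 266 to 309 UMIs. Relative to other transcripts, members differed there: on the CPM scale, Phlda1 stood at 269, 80.7, 181 and 289.8 in DEP 11, DEP 13, PBS 2 and PBS 3 and Pmaip1 at 189, 161, 148 and 113, from 5 to 44 UMIs each. For Phlda1, Pmaip1, Bcl2l11 and Ripk1 the level there was above that in the myeloid barcodes of the same mouse in 4 of 4 mice, whereas Bax was below it in 3 of 4. In the lymphocyte and plasma cell barcodes, Casp8 reached 24.9 to 50.5 CPM and Bcl2l11 8.0 to 13.2, below their levels in the myeloid barcodes of every mouse, and Dedd2 with 7.5 to 18.6 overlapped its myeloid range.

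Promoters of 7 of the 9 members were found in the RefSeq table for GRCm38.p6. The 250 bases before each start were searched on both strands for the letters of an AP-1 site (TGANTCA), a cyclic AMP response element (TGACGTCA), a heat shock element (GAANNTTC), an E-box (CACGTG) and a GC box (GGGCGG); none of these contains another. Among all 32851 promoters of the same length, 6.75%, 1.55%, 6.69%, 6.02% and 32.7% held them. The windows of Dedd2, Bbc3 and Bax are shown because Dedd2 and Bbc3 were lower in the DEP mice, whereas Bax differed less. They run 5′ to 3′, capitals mark the E-box, and annotated untranslated bases were left out, which shortened Dedd2 to 182 bases that lie inside the gene upstream of its RefSeq start and overlap the antisense gene 4933430L12Rik. Of the 3 starts of Bbc3, the one whose window held an E-box was chosen for that match. The other 2 windows of Bbc3 held no E-box, with 5 and 1 GC boxes.
Dedd2, chr7:25219928-25220109, minus strand: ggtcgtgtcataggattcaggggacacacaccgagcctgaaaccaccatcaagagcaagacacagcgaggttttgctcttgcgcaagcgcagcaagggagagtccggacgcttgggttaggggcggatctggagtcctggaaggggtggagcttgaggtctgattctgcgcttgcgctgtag
Bbc3, chr7:16310181-16310430, plus strand: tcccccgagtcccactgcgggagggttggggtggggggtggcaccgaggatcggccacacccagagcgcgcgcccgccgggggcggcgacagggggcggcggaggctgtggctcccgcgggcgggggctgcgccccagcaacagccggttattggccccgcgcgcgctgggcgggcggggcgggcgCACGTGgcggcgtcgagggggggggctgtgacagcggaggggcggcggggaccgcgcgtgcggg
Bax, chr7:45466899-45467148, minus strand: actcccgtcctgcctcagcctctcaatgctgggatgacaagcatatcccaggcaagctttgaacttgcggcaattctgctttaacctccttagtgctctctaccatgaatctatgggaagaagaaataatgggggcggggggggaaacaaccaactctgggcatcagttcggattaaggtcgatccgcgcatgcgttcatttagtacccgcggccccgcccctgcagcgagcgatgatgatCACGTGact
Bax and this Bbc3 window each held 1 E-box, as did the window of Ripk3, which is not shown. Dedd2 held none of the AP-1, cyclic AMP response, heat shock or E-box letters and 1 GC box, against 7 GC boxes in the Bbc3 window and 2 in that of Bax. A match is a description of these letters only.

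To compare the early with the late end of macrophage maturation, the myeloid barcodes were divided by Ly6c2 and C1qa. Since the median of Ly6c2 was 0, Ly6c2-high meant at least 1 Ly6c2 UMI, and C1qa was divided at its median of 35.1 UMIs per 10000. Ly6c2-high C1qa-low barcodes made up 22.3% to 29.0% of the myeloid barcodes per mouse and C1qa-high Ly6c2-low barcodes 32.0% to 43.8%, and these served as the monocyte-rich and the macrophage-rich side. Of the 1883 barcodes with Ly6c2, 972 had a single UMI of it, and 467 myeloid barcodes lay within 20% of the C1qa limit, so both classes are ranges rather than cell types. The 8 monocyte markers, among them Ly6c2, Ccr2 and Plac8, summed to 5159 to 6796 CPM in Ly6c2-high C1qa-low barcodes and to 516 to 844 in C1qa-high Ly6c2-low ones. The 10 macrophage markers, among them C1qa, Adgre1 and Csf1r, showed the reverse with 14828 to 22807 against 54710 to 63950. Both lists contain the gene that set the division. Median depth was 4708.5 to 6326.5 UMIs on the monocyte-rich side and 6134 to 8014 on the other, and levels are therefore given as CPM.

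Pmaip1 was higher in Ly6c2-high C1qa-low barcodes and Phlda1 in C1qa-high Ly6c2-low ones, in 4 of 4 mice each, whereas the other 6 tested members did not pass the test. With UMIs summed per mouse and the mouse as a block, 2597 of 6607 genes (39.3%) passed at an FDR of 5%, 1376 higher (20.8%) and 1221 lower (18.5%) in the Ly6c2-high barcodes. The members counted 2 of 8, 1 in each direction, which is not more than among all genes. Their median log2 difference was 0.09, against 0.00 (−0.000639) over all genes tested. Bbc3 did not reach the minimum of a UMI in 5% of barcodes and was fitted only without the filter on low counts. The plot of levels by kind of barcode shows each mouse as a line.

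**Figure D1:**
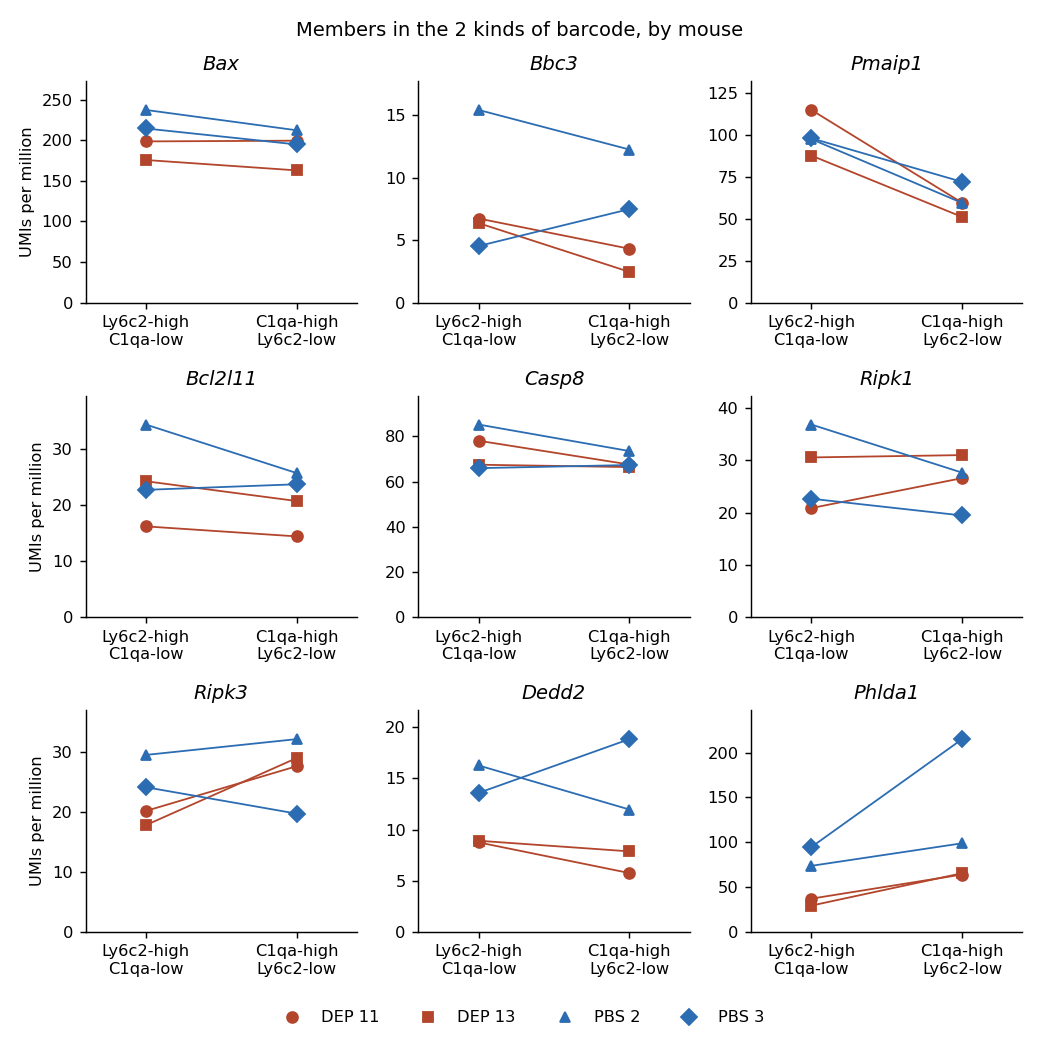
Level of each member (CPM, y axis from 0) in Ly6c2-high C1qa-low and in C1qa-high Ly6c2-low barcodes, 1 line per mouse, DEP in red and PBS in blue. All 4 lines of Pmaip1 go down from left to right and all 4 of Phlda1 go up, and the lines of the other members cross or stay near level.

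Pmaip1, the BH3-only protein that binds Mcl1 and A1, stood at 115, 87.8, 97.6 and 98.1 CPM in Ly6c2-high C1qa-low barcodes of DEP 11, DEP 13, PBS 2 and PBS 3. In C1qa-high Ly6c2-low barcodes, it stood at 59.6, 51.2, 59.5 and 72.1 in the same order. All 4 values of the first kind lay above all 4 of the second. The means were 99.7 ± 11.3 and 60.6 ± 8.6 (SD, n = 4), a log2 difference of 0.68 (SE 0.09, edgeR adjusted p = 3.58e-06) or 1.6-fold. The share of barcodes with a Pmaip1 UMI overlapped between the kinds at full depth, 30.4% to 35.0% against 22.2% to 33.0%, and did not overlap after each barcode was thinned to 1000 UMIs, 7.7% to 12.0% against 4.7% to 7.2%. The summed tissue dissociation list of immediate early and heat shock genes was also higher on the Ly6c2-high side in 4 of 4 mice, with 15100, 13563, 20146 and 15767 CPM against 14132, 11424, 16643 and 15226. Its part in the Pmaip1 difference was not tested.

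Phlda1 stood at 37.0, 29.3, 73.7 and 94.6 CPM in Ly6c2-high C1qa-low barcodes and at 64.0, 65.4, 98.9 and 215 in C1qa-high Ly6c2-low ones. It was higher on the C1qa-high side in every mouse, but the ranges over mice overlapped. The log2 difference was −0.88 (SE 0.11, edgeR adjusted p = 1.31e-06), 1.84-fold higher in C1qa-high barcodes. The per-mouse log2 difference ran from −1.18 in PBS 3 to −0.42 in PBS 2. This call rests on comparison within mice: without the mouse as a block, the log2 difference was −0.88 (SE 0.39) with an edgeR adjusted p of 0.12.

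Bax, the effector, was nearly even. It stood at 199, 176, 237 and 214 CPM in Ly6c2-high C1qa-low barcodes and at 199, 163, 212 and 195 in C1qa-high Ly6c2-low ones. The log2 difference was 0.08 (95% interval −0.06 to 0.22, edgeR adjusted p = 0.361), so a difference of over 0.22 in either direction lay outside the interval. Bcl2l11 stood at 16.2, 24.2, 34.3 and 22.6 against 14.4, 20.7, 25.6 and 23.6 CPM, a log2 difference of 0.18 (−0.13 to 0.50, edgeR adjusted p = 0.373). Bbc3 was higher on the Ly6c2-high side in 3 of 4 mice, from 60 and 85 UMIs in all, and its log2 difference without the gene filter was 0.22 (SE 0.27, edgeR adjusted p = 0.734).

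Casp8, the initiator caspase of death receptors, stood at 78.1, 67.5, 85.2 and 65.9 CPM in Ly6c2-high C1qa-low and at 67.5, 66.4, 73.5 and 67.3 in C1qa-high Ly6c2-low barcodes. Its log2 difference was 0.09 (−0.10 to 0.28, edgeR adjusted p = 0.46). Ripk1 was higher on one side in 2 mice and on the other in 2 (log2 difference 0.10, −0.21 to 0.42, edgeR adjusted p = 0.637). Ripk3 stood at 20.2, 17.8, 29.6 and 24.2 against 27.7, 29.0, 32.2 and 19.7 and was higher on the C1qa-high side in 3 of 4 mice (log2 difference −0.19, −0.52 to 0.14, edgeR adjusted p = 0.374). Dedd2 gave 0.08 (−0.38 to 0.53, edgeR adjusted p = 0.82), higher on the Ly6c2-high side in 3 of 4 mice. None of these 4 passed the test, and the intervals of Ripk1, Ripk3 and Dedd2 leave room for a log2 difference of 0.4 or more.

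**Figure D2:**
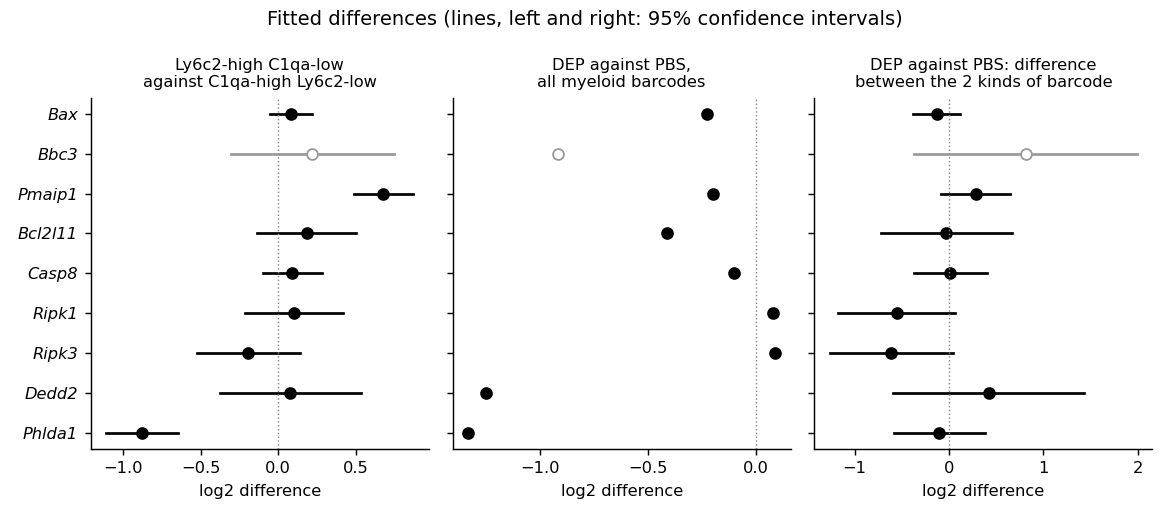
Fitted log2 differences (points) for the 9 members, between the kinds of barcode on the left, between DEP and PBS mice in the middle and for the difference of the DEP effect between the kinds on the right (x axes differ). Lines on the left and right are 95% confidence intervals, and the middle gives values alone. On the left, only the intervals of Pmaip1 and Phlda1 do not hold 0, and Bbc3 (open and grey) comes from the fit without a filter on low counts.

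Other genes of these pathways were divided between both sides. Of the 7 anti-apoptotic Bcl2 genes, 6 were tested and 4 were lower in Ly6c2-high C1qa-low barcodes, with a list median of −1.33 on the log2 scale against 0.00 (−0.000639) for all genes. They were Bcl2a1b (−1.72, SE 0.08, edgeR adjusted p = 2.16e-13), Bcl2a1d (−1.60), Bcl2a1a (−1.56) and Bcl2l1 (−1.11), while Mcl1 gave 0.09 and Bcl2 −0.34 and did not pass. The 3 A1 genes are near-identical copies, so that their UMIs cannot be divided with certainty and they may count as 1 gene. Of 5 tested among 9 other pro-apoptotic Bcl2 genes, Bnip3l (0.31) and Bid (0.42), which links Casp8 to mitochondria, were higher on the Ly6c2-high side and none was lower.

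Among caspases, the apoptosome and their inhibitors, 3 of 9 tested genes were higher in Ly6c2-high C1qa-low barcodes and none lower: Cycs (cytochrome c; 0.93, SE 0.07, edgeR adjusted p = 1.68e-10), Apaf1 (0.63), its partner in the apoptosome, and Birc3 (0.29), an inhibitor of apoptosis. Of 9 tested death receptor and adaptor genes, 3 were higher and none lower: the death receptor Fas (1.35, SE 0.17, edgeR adjusted p = 1.57e-06), Tnfrsf1b (0.80) and Tnfrsf1a (0.27), the receptors of tumour necrosis factor. Of 4 tested necroptosis genes beside the members, the nucleic acid sensor Zbp1, which can activate Ripk3, was higher (1.38, SE 0.10, edgeR adjusted p = 4.6e-10) and Tnf was lower (−0.57). Of 6 tested genes among p53 itself (Trp53) and its targets, Cdkn1a (0.30), a cell cycle inhibitor, was higher and none was lower. Among all genes, 20.8% were higher and 18.5% lower, and the lists as such were not tested.

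Pmaip1 was lower where C1qa was higher. In 5 equal parts of the barcodes by C1qa, from lowest to highest, it averaged 108 ± 17.7, 85.4 ± 12.5, 73.9 ± 10.9, 60.8 ± 11.3 and 53.3 ± 11.4 CPM (SD, n = 4 mice). In every mouse, the lowest part was higher than the highest part. Along Ly6c2, Pmaip1 was not graded in the same way. It stood at 68.4 ± 13.2 without Ly6c2, 66.0 ± 8.3 at up to 3 Ly6c2 UMIs per 10000, 111 ± 7.6 from 3 to 10 and 89.4 ± 14.9 above 10. In the barcodes high in both Ly6c2 and C1qa, Pmaip1 averaged 56.5 ± 11.3 CPM, and in those low in both 86.5 ± 21.4. The mean of Phlda1 was lowest in the lowest C1qa part (55.1 ± 22.7) and highest in the fourth (124 ± 80.9), and in the fifth it was again lower (86.4 ± 53.5). Single mice differed from this order. Phlda1 was lower in the second part than in the lowest in DEP 11 (26.2 against 53.2) and PBS 2 (66.8 against 70.6). In DEP 11 the fifth part (48.5) also lay below the lowest. Along Ly6c2, Phlda1 went from 105 ± 57.3 and 90.0 ± 66.3 in the 2 lower groups to 50.3 ± 28.5 and 40.9 ± 28.3 in the 2 upper ones, the last of which held only 280 barcodes and 63 Phlda1 UMIs. From the lowest to the highest C1qa part, the mice did not overlap for Pmaip1 (87.1 to 130 against 38.6 to 65.7) and overlapped for Phlda1 (23.6 to 72.9 against 40.2 to 156). Single steps were within the spread between mice for Phlda1 and for some of those of Pmaip1, which was higher in the fourth than in the third part in PBS 3 and in the fifth than in the fourth in PBS 2. Over the C1qa parts, the means of Bax ran from 186 to 212, with single mice from 158 to 253, and the means of Casp8 from 64.6 to 81.8.

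**Figure D3:**
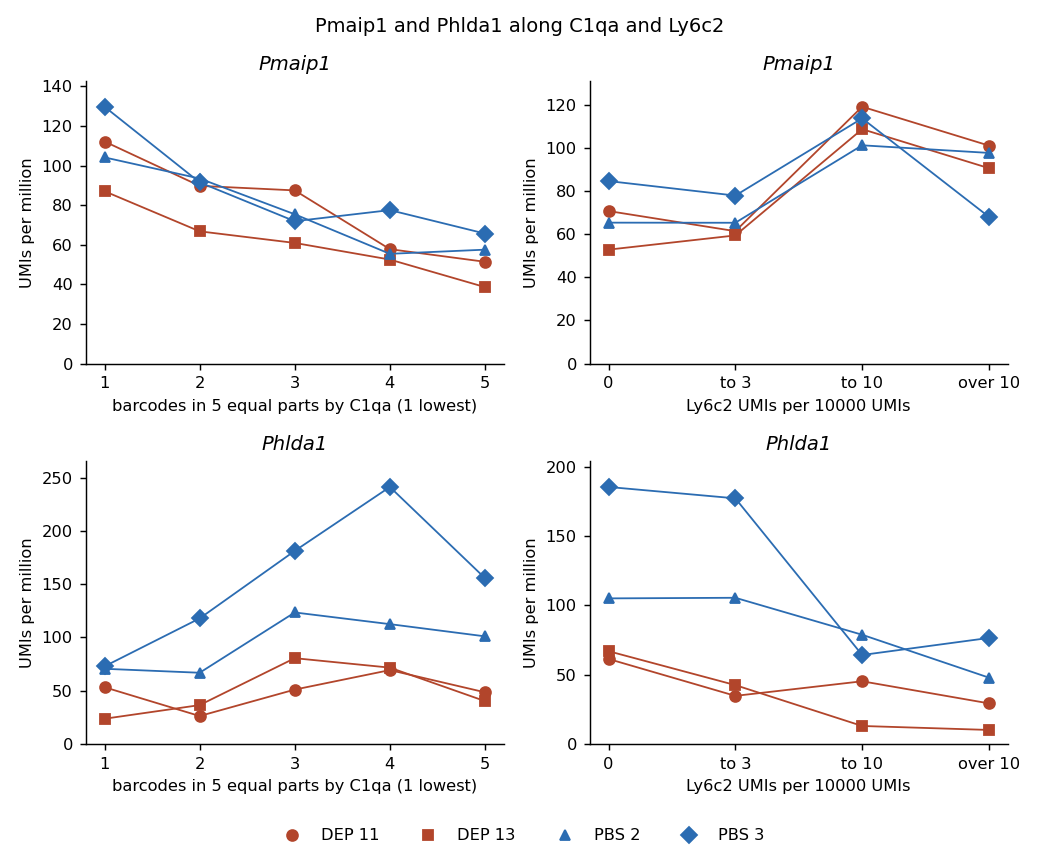
Pmaip1 (upper row) and Phlda1 (lower row) in CPM (y axes from 0), in 5 equal parts of the myeloid barcodes by C1qa (left) and in 4 groups by Ly6c2 UMIs per 10000 (right), 1 line per mouse. Pmaip1 is highest in the lowest C1qa part in every mouse, and the 2 PBS mice lie above the 2 DEP mice for Phlda1 in each group.

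Which genes had the most similar pattern was read from the correlation of log2 levels over 16 sums (4 mice by 4 combinations of Ly6c2 and C1qa) among 6564 genes. The sums of a mouse share its library, so the correlations are a description. Phlda1 was most like the immediate early gene Egr1 (Pearson's r = 0.90) and the co-chaperone Bag3 (0.90). Dedd2 was most like the haem oxygenase Hmox1 (0.85), the heat shock gene Hspa1a (0.83) and Tmed9 (0.80). Pmaip1 was most like Mtch2, a mitochondrial outer membrane protein (0.95), Mdh2, a mitochondrial enzyme (0.93), and Dbi (0.91). Bax was most like Jun (0.90), Creld2 (0.88) and Ier2 (0.86), and Bcl2l11 most like Dusp2 (0.89), 1500011B03Rik (0.86) and its binding partner Mcl1 (0.86). Casp8 was most like the interferon-induced genes Pml (0.89) and Rsad2 (0.85) and like Por (0.85). Ripk3 was most like Tmem189 (0.89), Arap1 (0.84) and Lrrc45 (0.83), and Ripk1, with the weakest best match, like Litaf (0.74), Pithd1 (0.74) and Rab5a (0.72).

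Levels in DEP and PBS mice are given as a description, without a test of the members, since they were chosen with this contrast known. Phlda1 was 2.52-fold and Dedd2 2.38-fold lower in DEP than in PBS mice, Bbc3, Bcl2l11 and Bax were lower in both DEP mice by less, and Pmaip1, Casp8, Ripk1 and Ripk3 overlapped between the groups. Over all myeloid barcodes, 0 of 6564 genes (0%) passed the edgeR test at an FDR of 5%, 171 had an unadjusted p under 0.05, and DESeq2 called 4. Both DEP mice lay below both PBS mice in 4 of the 8 members past the gene filter, and above them in none. Of all genes tested, 12.4% lay apart in this direction and 26.4% in either. The median log2 difference of these 8 members was −0.21, against 0.00 (−0.00362) over all genes. Since fewer transcripts per cell and fewer cells that express a gene give the same sum, shares of barcodes are given beside the levels.

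Phlda1 stood at 51.2 and 55.9 CPM in DEP 11 and DEP 13 and at 99.5 and 169 in PBS 2 and PBS 3. The 2 DEP mice were close to each other, the 2 PBS mice were far apart, and the groups did not overlap. Means were 53.5 ± 3.3 and 134 ± 48.9 (SD, n = 2 each), and the fitted log2 difference was −1.34 (SE 0.26), 0.40-fold. PBS 3 set much of the size: without it the log2 difference was −0.85, and without PBS 2 it was −1.70. Phlda1 was found in 14.6% (exact 95% interval 12.6 to 16.7) and 13.8% (11.2 to 16.7) of the DEP barcodes and in 28.6% (26.1 to 31.2) and 30.1% (27.8 to 32.5) of the PBS barcodes; the intervals cover counting error only. After thinning each barcode to 1000 UMIs, the shares were 5.35% and 4.40% in DEP against 6.58% and 10.8% in PBS, so that the groups stayed apart but DEP 11 and PBS 2 came close. Barcodes with Phlda1 held 2.03 and 2.51 UMIs of it on average in the DEP mice against 2.67 and 3.29 in the PBS mice. Barcodes with 5 or more Phlda1 UMIs made up 1.19% and 1.88% of the DEP barcodes against 4.04% and 6.07% of the PBS barcodes, and the top 5% of barcodes held 54.9% to 73.8% of all Phlda1 UMIs of a mouse.

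Dedd2 stood at 5.85 and 7.59 CPM in DEP 11 and DEP 13, against 14.6 and 16.7 for the controls, from 40, 30, 141 and 149 UMIs. Each pair was close and the groups were well apart. The fitted log2 difference was −1.25 (SE 0.26), 0.42-fold, and ran from −1.45 to −1.01 with any 1 mouse left out. Dedd2 was found in 3.31% (exact 95% interval 2.36 to 4.50) and 4.55% (3.07 to 6.47) of the DEP barcodes and in 10.1% (8.46 to 11.9) and 9.31% (7.89 to 10.9) of the PBS barcodes. These intervals cover counting error only and not the spread between mice. With 1000 UMIs per barcode, the shares were 0.42% and 0.94% in DEP against 1.19% and 2.44% in PBS, with DEP 13 near PBS 2. Positive barcodes held 1.03 to 1.11 UMIs of Dedd2 on average. The order of the PBS mice differed between share and level, and median depth was 7113 UMIs in PBS 2 and 5350 in PBS 3.

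Bbc3 stood at 5.55, 4.55, 13.2 and 5.96 CPM in DEP 11, DEP 13, PBS 2 and PBS 3, from 38, 18, 128 and 53 UMIs. The groups did not overlap, but only PBS 2 stood apart, and PBS 3 was next to DEP 11. Without the gene filter its log2 difference was −0.92 (SE 0.31). Bcl2l11 stood at 17.2 and 23.8 against 29.0 and 25.1 CPM (log2 difference −0.41, SE 0.22), with DEP 11 lowest; with 1 mouse left out the log2 difference ran from −0.68 to −0.15, the latter without DEP 11. Bax stood at 198 and 168 against 228 and 202, with 4 CPM between the nearest mice of the 2 groups (log2 difference −0.23, SE 0.15; −0.32 to −0.15 with 1 mouse left out).

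Pmaip1 stood at 74.7 and 60.4 CPM in DEP against 70.8 and 84.4 in PBS, and its groups overlapped (log2 difference −0.20, SE 0.18; −0.36 to −0.02 (−0.019) with 1 mouse left out). Casp8 stood at 69.0 and 63.5 against 75.7 and 66.9 (log2 difference −0.10, SE 0.15; −0.15 to −0.05 (−0.053) with 1 mouse left out). Ripk1 stood at 25.4 and 29.6 against 30.2 and 21.8 (log2 difference 0.08, SE 0.21; −0.10 to 0.28 with 1 mouse left out), and Ripk3 at 27.3 and 30.1 against 32.4 and 21.7 (log2 difference 0.09, SE 0.21; −0.14 to 0.36). For both kinases, the 2 DEP mice lay between the 2 PBS mice.

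**Figure D4:**
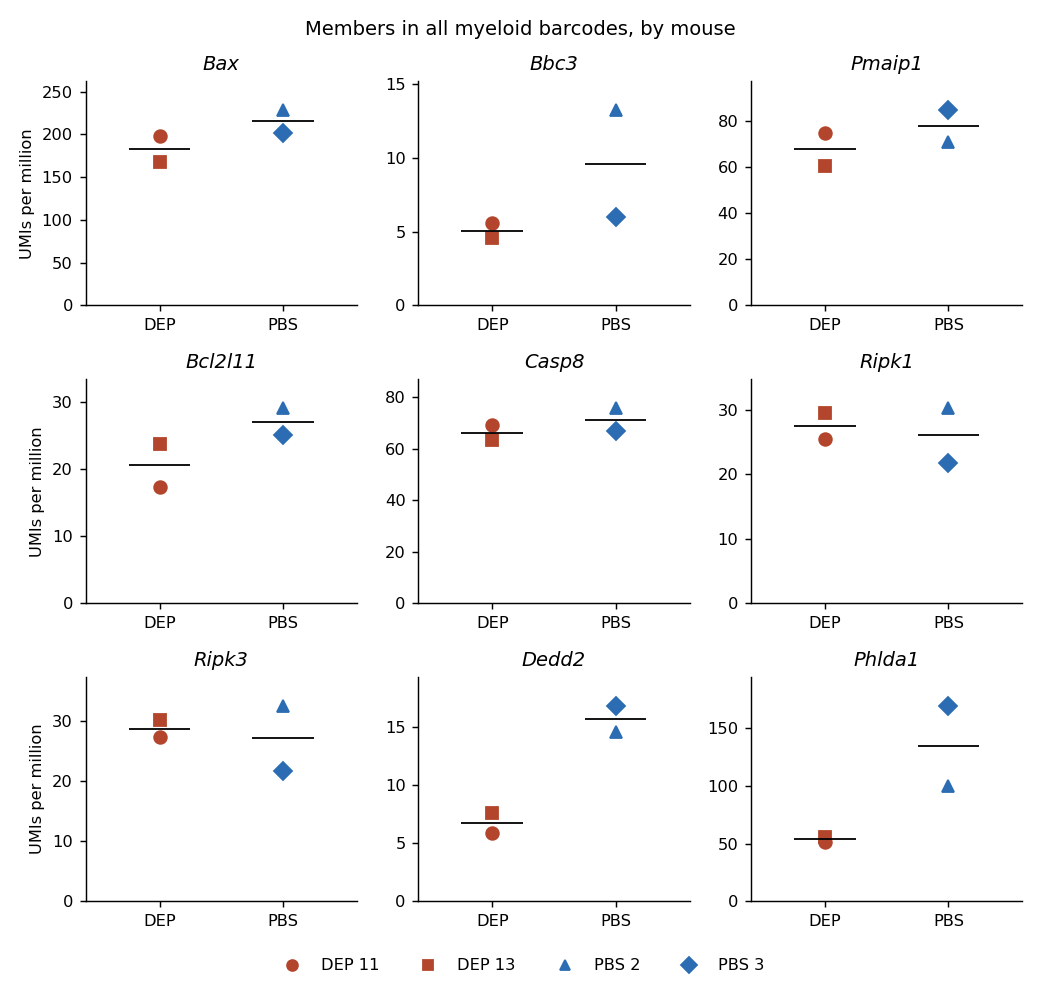
Level of each member (CPM, y axes from 0) in all myeloid barcodes of each mouse, with the group mean as a line. The DEP mice lie at 51.2 and 55.9 for Phlda1 and at 5.85 and 7.59 for Dedd2, below both PBS mice, and lie between the PBS mice for Ripk1 and Ripk3.

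Within the kinds of barcode, Phlda1 and Dedd2 were lower in both DEP mice on either side of the division. In Ly6c2-high C1qa-low barcodes, Phlda1 stood at 37.0 and 29.3 in DEP against 73.7 and 94.6 in PBS (log2 difference −1.32, SE 0.26) and Dedd2 at 8.75 and 8.91 against 16.3 and 13.6 (log2 difference −0.77, SE 0.39). With the division taken from thinned counts these were −0.64 for Phlda1 and −1.44 for Dedd2, with the counts themselves thinned to 1000 UMIs −0.58 for Phlda1, and with upper and lower tertiles −1.34 for Dedd2. In C1qa-high Ly6c2-low barcodes, Phlda1 stood at 64.0 and 65.4 against 98.9 and 215 (log2 difference −1.28, SE 0.31; −0.55 without PBS 3 and −1.76 without PBS 2) and Dedd2 at 5.75 and 7.87 against 12.0 and 18.8 (log2 difference −1.19, SE 0.36; −0.78 without PBS 3). The edgeR test called 0 of 5973 genes (0%) in the first and 0 of 6907 (0%) in the second, with 168 and 258 genes at an unadjusted p under 0.05 and 0 and 2 calls by DESeq2. Of the 8 members past the filter, 4 lay apart and lower in the first (Bax, Ripk3, Dedd2 and Phlda1; 13.8% of all genes, 28.2% in either direction) and 3 in the second (Bcl2l11, Dedd2 and Phlda1; 16.3% of all genes, 30.9% in either direction), and none lay apart and higher. Bbc3 stood at 6.73 and 6.36 against 15.4 and 4.53 in the first and at 4.31 and 2.46 against 12.2 and 7.48 in the second, from 5 to 43 UMIs per mouse.

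Whether the DEP effect differed between the kinds of barcode was tested as an interaction over the 8 sums with the mouse as a block. The edgeR test called 44 of 6607 genes (0.666%, with 0.242% higher and 0.424% lower) and 0 of the 8 members, none of which had an unadjusted p under 0.05. The smallest p values were those of the necroptosis kinases, Ripk3 with an interaction of −0.61 on the log2 scale (95% interval −1.26 to 0.04, edgeR adjusted p = 0.778) and Ripk1 with −0.56 (−1.17 to 0.06, edgeR adjusted p = 0.812). In Ly6c2-high C1qa-low barcodes both DEP mice were the lowest for Ripk3 (20.2 and 17.8 against 29.6 and 24.2), and in C1qa-high Ly6c2-low barcodes they lay between the PBS mice (27.7 and 29.0 against 32.2 and 19.7). For Phlda1 the interaction was −0.10 (−0.58 to 0.38, edgeR adjusted p = 0.979), for Dedd2 0.42 (−0.59 to 1.43, 0.961), for Pmaip1 0.28 (−0.08 to 0.65, 0.867), for Bax −0.13 (−0.38 to 0.12, 0.945), for Bcl2l11 −0.03 (−0.73 to 0.67, 0.995) and for Casp8 0.01 (−0.37 to 0.40, 0.996), the last number in each being the edgeR adjusted p. For Dedd2 this interval holds differences of over 2-fold. The direction of the Phlda1 and Dedd2 interactions was not stable, and those of Bax, Bcl2l11 and Casp8 also changed sign under some alternatives. That of Phlda1 was 0.62 with the division taken from thinned counts, 0.55 with the counts thinned to 1000 UMIs, and −0.50 to 0.25 with 1 mouse left out. That of Dedd2 was −0.46 with the division from thinned counts, −0.38 with upper and lower tertiles, and −0.020 to 0.88 with 1 mouse left out.

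Immediate early and heat shock genes are genes that cells can switch on while a tissue is digested and sorted. The 19 genes of this dissociation list summed to 14420 and 12281 CPM in DEP 11 and DEP 13 against 17685 and 15384 in PBS 2 and PBS 3. The fitted log2 difference was below 0 for 18 of 19, with a median of −0.38 against 0.00 (−0.00362) over all genes, 10 lay apart and lower, against 12.4% of all genes, and the groups overlapped for the other 9. Hspb1 stood at 8.04 and 23.0 against 49.9 and 87.1 CPM (log2 difference −2.22, SE 0.45) and Bag3 had a log2 difference of −1.63 (SE 0.37), the 2 largest of the list. Between the kinds of barcode, the list summed higher on the Ly6c2-high side in every mouse, and 7 genes of it were higher and 6 lower in the Ly6c2-high ones, against 20.8% and 18.5% of all genes, Nr4a1 (1.28, SE 0.08), Hspa8 and Zfp36 among the former and Hspb1 (−1.82, SE 0.14), Dnajb1 and Fosb among the latter, with edgeR adjusted p of 2.56e-05 or less for these 6.

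The members were therefore also read in 4 equal parts of the barcodes by the summed level of this list, a comparison added after seeing the data. Phlda1 averaged 28.5 ± 4.65, 53.1 ± 16.8, 58.6 ± 0.9 and 104 ± 10.9 CPM from the lowest to the highest part in DEP and 72.4 ± 30.2, 115 ± 54.6, 140.2 ± 28.7 and 203 ± 113 in PBS (SD, n = 2 each). Both DEP mice lay below both PBS mice in each of the 4 parts, and in each mouse the highest part exceeded the lowest. Dedd2 averaged 5.91, 6.42, 6.67 and 9.01 in DEP against 12.9, 14.9, 14.4 and 20.3 in PBS, and was also apart in each part, from 4 to 52 UMIs per mouse and part. With the 4 parts weighted equally, the log2 ratio of DEP to PBS was −1.12 for Phlda1 (−1.32 over all barcodes) and −1.16 for Dedd2 (−1.22). For Bcl2l11 it was −0.24 in place of −0.40, for Bbc3 −0.79 in place of −0.92, for Bax −0.28 in place of −0.23 and for Pmaip1 −0.02 in place of −0.20. Pmaip1 averaged 33.4 ± 9.7 in the lowest and 125 ± 14.0 in the highest part in the PBS mice, and the groups overlapped in all parts. The highest part held 35.6% of the barcodes of PBS 2 and 12.6% of those of DEP 13. Abundant genes weighed most in the summed level of the list. Over the mice, in all myeloid barcodes, Hspa8 stood at 2339 to 3297 CPM and Hspb1 at 8.04 to 87.1. Whether DEP and PBS mice were alike in Hspb1 or Bag3 within a part was not tested. The part of the list in the DEP difference was not tested either.

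**Figure D5:**
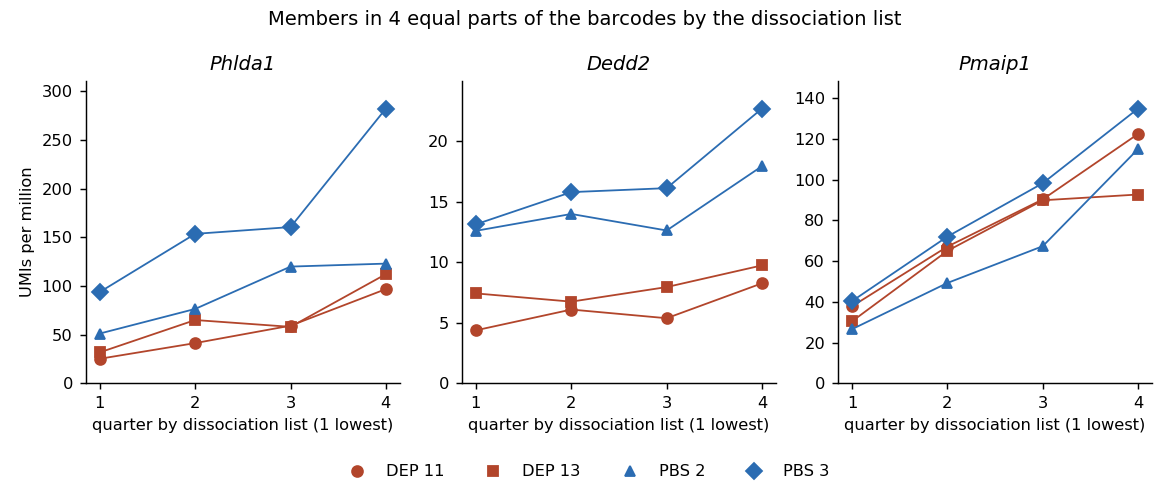
Phlda1, Dedd2 and Pmaip1 (CPM, y axes from 0) in 4 equal parts of the myeloid barcodes by the summed tissue dissociation list, 1 line per mouse. The DEP lines of Phlda1 and Dedd2 stay below the PBS lines in each part, and those of Pmaip1 do not.

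Other cell death genes were compared between DEP and PBS mice in the same descriptive way. Of all genes, 14% lay apart and higher and 12.4% apart and lower in the DEP mice. Of 6 anti-apoptotic Bcl2 genes past the filter, 5 had a log2 difference above 0 (list median 0.11). Bcl2l1 (0.31, SE 0.22) and Bcl2a1a (0.28, SE 0.18) were higher in both DEP mice and Mcl1 (−0.17, SE 0.16) lower in both. Bcl2a1b (0.09) and Bcl2a1d (0.13), near-identical copies of Bcl2a1a, overlapped between the groups. These 3 A1 genes may count as 1 gene. Of 9 caspase, apoptosome and inhibitor genes, 5 lay apart and higher and 1 lower. The higher ones were Xiap (0.40, SE 0.18), an inhibitor of caspases, Birc3 (0.30), Casp2 (0.28), Diablo (0.18) and Casp6 (0.08). The lower one was Apaf1 (−0.34, SE 0.21). Of 9 death receptor and adaptor genes, 8 were below 0 and 3 lay apart and lower, among them Dedd (−0.51, SE 0.22), the closest relative of Dedd2, and Fas (−0.47, SE 0.22). Of 5 other pro-apoptotic Bcl2 genes, Bid (−0.46, SE 0.18) and Bad (−0.17, SE 0.16) lay lower and Bnip3l (0.19, SE 0.16) higher. Of the same 6 genes of p53 and its targets, 5 were below 0 (list median −0.19, Trp53 itself −0.12), 3 lay apart and lower and 1 higher, Btg2 (−0.44, SE 0.16), also an immediate early gene, and Cdkn1a (−0.24, SE 0.16) among them, and of 4 necroptosis genes 3 were below 0 and none lay apart. No gene of these lists passed the edgeR test at an FDR of 5%.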

How the data were processed

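The authors deposited 1 table of raw UMI counts (whole numbers per gene and barcode, not normalized). Barcodes end in the title of their sample, and this assigned them to mice. Per the submitters' processing notes, the table was made with STAR 2.6.1a, R 3.5.1, build mm10 and Cell Ranger. The notes give no Cell Ranger version. The study's methods give one, with alignment settings, but for far fewer cells than this table holds, so they were not taken to describe it. Symbols for 28416 of 28692 identifiers and positions came from GENCODE M21 (mm10).

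Barcodes with at least 1000 UMIs were kept. Those with at least 3 UMIs and 5 per 10000 of T cell, B cell or plasma cell markers were left out, a threshold set after seeing the data. The immunoglobulin genes of the plasma cell list, Jchain, Xbp1, Cd79b and Cd22 did not count towards it. UMIs were summed per mouse and kind of barcode. The mouse was the replicate, and whether the mice differed in litter or day is not given in the labels. The test was edgeR's quasi-likelihood F test (version 4.0.16, TMM scaling, Benjamini-Hochberg FDR of 5% over all genes tested, R 4.3.3), two-sided, in 5 comparisons, on genes that passed 1 CPM in 2 or more sums and were seen in 5% or more of the barcodes. DEP against PBS had 2 residual degrees of freedom. The comparison of kinds of barcode and the interaction had the mouse as a block. DESeq2 1.42.0 was an alternative. Each fit was tested on simulated data with known changes. Doublets were scored with scrublet (scanpy 1.11.5, expected rate 6%). Levels are CPM of the summed barcodes and were not compared between genes. SE is the log2 difference divided by the square root of F.

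The members, lists and tests were chosen with earlier results of these data known. Named genes were all members, the 3 genes per list and direction with the smallest adjusted p between kinds of barcode, the 2 per list with the largest log2 difference among those apart between DEP and PBS, and the 3 genes most like each member. Others were added once their values were known. Between DEP and PBS these were Bad, Mcl1, Trp53, Bcl2a1b, Bcl2a1d, Birc3, Casp2, Casp6 and Diablo. Between the kinds they were Bcl2l1, Mcl1 and Bcl2. Of the genes most like a member, 1 is not reported here. Alternatives were the scaling, the tool, no filter on low counts, other UMI limits, a gene number and mitochondrial filter (up to 7%), lymphocyte barcodes kept, called doublets left out, barcodes with over 10% of UMIs in the plasma cell list left out (added after seeing the data), division into tertiles, thinned counts, no mouse block and leaving out each mouse.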

Additional observations from a re-analysis of the deposited data

Results flagged for a closer look

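The difference between the DEP effect in Ly6c2-high C1qa-low and in C1qa-high Ly6c2-low barcodes was past the FDR threshold of 5% (edgeR, interaction) for 44 of 6607 genes, 16 with a more positive and 28 with a more negative difference in the Ly6c2-high barcodes, and for 0 of the 8 members. The 4 with the smallest adjusted p, named after their values were seen, were Cd63 (−0.98 on the log2 scale, SE 0.12), Pf4 (−1.06, SE 0.13), Ccl12 (−1.07, SE 0.15) and Ms4a7 (−0.76, SE 0.11). C1qa, which set the division, was among the 44 (−0.50, SE 0.09). The count was 13 with DESeq2 and 0 where the kinds were set from counts thinned to 1000 UMIs.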

How the results depend on the processing

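No paired analysis was possible for DEP against PBS because the labels give the 4 mice different numbers (11, 13, 2 and 3). Between the kinds of barcode, the mouse was the block; with no replicate block, 1738 genes in place of 2597 were called, Pmaip1 stayed past the threshold (0.69, edgeR adjusted p = 9.33e-04) and Phlda1 did not (−0.88, 0.12). Pmaip1 (0.56 to 0.78) and Phlda1 (−1.18 to −0.69) kept their direction and side of the threshold under all other alternatives, with adjusted p up to 0.00906 and 6.26e-04. Called genes between the kinds numbered 1663 with DESeq2 and 764 with counts thinned to 1000 UMIs (1987 genes tested), and 2191 to 2343 without 1 mouse. For DEP against PBS, the calls in all myeloid, Ly6c2-high C1qa-low and C1qa-high Ly6c2-low barcodes numbered 0, 0 and 0, and 96, 61 and 60 with no filter on low counts; 4 and 2 with DESeq2 in all myeloid and in C1qa-high barcodes; and 1 with division into tertiles and 2 with levels from thinned counts in C1qa-high barcodes; and 5 in Ly6c2-high C1qa-low barcodes without those over 10% plasma cell list. Leaving out 1 mouse, where the lone mouse is assumed to vary like the other group, gave 0 to 28, 10 to 60 and 0 to 24. Interaction calls (44) numbered 13 with DESeq2, 67 with no filter, 28 with lymphocyte barcodes kept, 14 with tertiles, 0 with levels from thinned counts and 1 with thinned counts, and 41 to 55 without 1 mouse. The cause was not tested, except that thinning tests fewer genes.

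Of 256 values of members under a test, 23 changed sign, each in a comparison that the member had not passed. Between the kinds, Bax gave −0.028 with levels from thinned counts and −0.048 with thinned counts, Ripk1 −0.12 with levels from thinned counts, and leaving out 1 mouse gave Ripk1 −0.067 to 0.24 and Dedd2 −0.13 to 0.40. In the interaction, tertiles gave Bax 0.10 and Dedd2 −0.38; doublets left out gave Bcl2l11 0.0080; no filter gave Casp8 −0.017 and lymphocyte barcodes kept −0.028; levels from thinned counts gave Casp8 −0.074, Dedd2 −0.46 and Phlda1 0.62; thinned counts gave Casp8 −0.11 and Phlda1 0.55. Leaving out 1 mouse gave Bcl2l11 −0.22 to 0.25, Casp8 −0.080 to 0.16, Dedd2 −0.020 to 0.88 and Phlda1 −0.50 to 0.25. Of 356 untested DEP values, 22 moved by more than the spread. In Ly6c2-high C1qa-low barcodes, Phlda1 moved from −1.32 to −0.64 with levels from thinned counts and Dedd2 from −0.77 to −1.44.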
